A study of Mus musculus with 2 samples.

Results

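The genes of arginine metabolism examined here were the cationic amino acid transporter Slc7a2, the arginases Arg1 and Arg2, the inducible nitric oxide synthase Nos2, the ornithine decarboxylase Odc1 and the argininosuccinate synthase Ass1, which are 6 of the 32285 genes listed in the count matrices. They were chosen by name, and all 6 had a row in both matrices. The cells were GR1+ cells, taken with magnetic beads from 4T1 mammary carcinomas of BALB/c mice aged 6 to 8 weeks. GR1 is a surface antigen that granulocytic and monocytic cells share. The 4T1P library came from tumors of the parental cell line, which does not respond to anti-PD1, and the 4T1M library from tumors of a mutagenized derivative that does. The labels name no treatment for either sample, and both carry the same strain, age and cell type labels. The study calls 4T1M a clone and also describes its mutagenized cells as multiclonal, so how many clones the tumors grew from is not given. Each condition was 1 droplet library of pooled mice, whose number the sources give differently, which leaves no replicates. The conditions were therefore compared without a test, and every interval below is a 95% interval for counting error only.

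Arginine enters a macrophage largely through the transporter encoded by Slc7a2. Inside the cell, arginases split it into ornithine and urea, while nitric oxide synthase, with tetrahydrobiopterin as a cofactor, converts it into nitric oxide and citrulline. Ornithine feeds the polyamines through ornithine decarboxylase, and citrulline can be returned to arginine by argininosuccinate synthase and lyase. Myeloid cells of tumors are known for using up arginine that T cells need, and Arg1 and Nos2 are the textbook genes of alternatively and classically activated macrophages, respectively.

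Retained barcodes had between 500 and 5000 genes with a UMI (unique molecular identifier, standing for 1 captured transcript) and no more than 10% of their UMIs from mitochondrial genes, which left 1726 of 2947 barcodes in 4T1P and 3461 of 5004 in 4T1M. Macrophages were barcodes with S100a8 and S100a9 below 1.5% of UMIs and 7 macrophage genes (C1qa, C1qb, C1qc, Apoe, Csf1r, Cd68 and Fn1) at 0.3% or more, and neutrophils had S100a8 and S100a9 at 1.5% or more and C1q genes with Apoe below 0.5%. There were 798 and 976 macrophages, with a median of 9727 and 9213.5 UMIs, and 612 and 1686 neutrophils, with a median of 3054.5 and 2957.5 UMIs, in 4T1P and 4T1M. Markers that the rule did not use bore the names out in part. The 7 neutrophil markers Csf3r, Cxcr2, Retnlg, Mmp9, G0s2, Hdc and Il1r2 summed to 1.66% and 1.36% of neutrophil UMIs against 0.0229% and 0.0332% of macrophage UMIs. The 7 further macrophage markers, which include Lyz2, Cd14 and Ctsb, summed to 1.58% and 1.15% in macrophages and still to 0.563% and 0.517% in neutrophils. A small class of 102 and 122 lymphocytes, defined by T, NK and B cell genes, served as the background, because a UMI of a myeloid gene in such a cell may be free RNA. Across all barcodes, 5 barcode sequences occurred in both libraries.

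The arginine genes split between the classes in the same way in both libraries. Arg1, Slc7a2, Ass1 and Odc1 were higher in macrophages, and Arg2 and Nos2 were higher in neutrophils. Levels are given in CPM, a gene's UMIs in 1000000 UMIs of the class, and are not scaled by transcript length, so that they are compared between classes and libraries but not between genes.

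**Figure D1:**
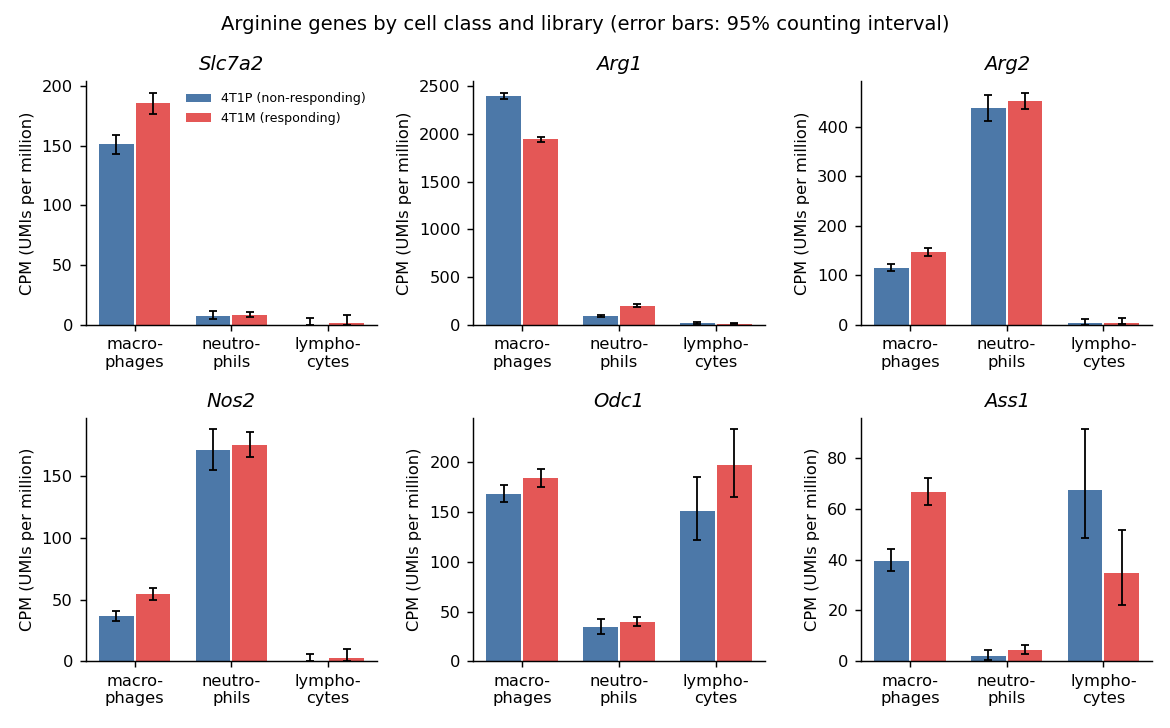
Level of each arginine gene in CPM (vertical axes, 1 scale per gene) in macrophages, neutrophils and lymphocytes of the 4T1P and 4T1M libraries, with 95% counting intervals as error bars. Arg1 stood at 2402 and 1945 CPM in macrophages against 93.1 and 202 CPM in neutrophils, whereas Nos2 stood at 36.5 and 54.3 CPM against 171 and 175 CPM.

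Slc7a2 (chromosome 8, 40862396 to 40922308, plus strand, in the GRCm38 annotation) was at 151 CPM in macrophages of 4T1P and at 185 CPM in those of 4T1M. In neutrophils it was at 7.59 and 8.51 CPM, and in lymphocytes at 0 UMIs and 1 UMI. The log2 ratio of macrophages over neutrophils was 4.31 in 4T1P and 4.45 in 4T1M. Its UMIs were unevenly spread over the macrophages, since the 10% of macrophages with the most Slc7a2 held 75.4% and 66.3% of them.

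Arg1 (chromosome 10, 24915221 to 24927484, minus strand), the cytosolic arginase, had 2402 CPM in macrophages of 4T1P (2370 to 2435) and 1945 CPM in those of 4T1M (1917 to 1974). An Arg1 UMI was present in 644 of 798 and in 740 of 976 macrophages. The median macrophage held 1366 CPM in 4T1P and 861 CPM in 4T1M, and the 10% with the most Arg1 held 49.6% and 54.5% of all Arg1 UMIs of the class. Arg1 was therefore a gene of most macrophages, with a wide range between them. Neutrophils were at 93.1 and 202 CPM, above lymphocytes at 16.1 (7.70 to 29.5) and 10.1 CPM (4.07 to 20.9), and the log2 ratio of macrophages over neutrophils was 4.69 and 3.27.

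Arg2 (chromosome 12, 79130777 to 79156301, plus strand), the mitochondrial arginase, showed the opposite order. It was at 437 and 453 CPM in neutrophils, at 115 and 146 CPM in macrophages and at 3.21 and 4.34 CPM in lymphocytes, in 4T1P and 4T1M. The log2 ratio of macrophages over neutrophils was -1.93 and -1.63. After each cell was thinned to 2000 UMIs at random, to make depths equal, an Arg2 UMI was found in 57.0% and 58.3% of neutrophils and in 20.1% and 24.6% of macrophages.

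Nos2 (chromosome 11, 78920787 to 78960254, plus strand) was also higher in neutrophils than in macrophages, at 171 (155 to 188) and 175 CPM (165 to 186) in neutrophils against 36.5 (32.6 to 40.7) and 54.3 CPM (49.6 to 59.2) in macrophages. In retained barcodes outside these classes and the lymphocytes it was at 174 (150 to 201) and 154 CPM (140 to 170). In lymphocytes it had 0 UMIs in 4T1P, where a floor of 3 UMIs equals 4.82 CPM, and 2 UMIs in 4T1M. The log2 ratio of macrophages over neutrophils was -2.23 and -1.69. In cells thinned to 2000 UMIs, 18.4% and 21.9% of neutrophils and 3.95% and 7.37% of macrophages carried a Nos2 UMI. The 10% of macrophages with the most Nos2 held 97.2% and 89.5% of the macrophage UMIs of the gene.

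Odc1 (chromosome 12, 17544794 to 17551505, plus strand) was at 168 and 184 CPM in macrophages and at 34.4 and 39.8 CPM in neutrophils, a log2 ratio of 2.29 and 2.21. Lymphocytes, at 151 (122 to 185) and 197 CPM (165 to 233), were not distinguishable from macrophages within counting error. Ass1 (chromosome 2, 31470207 to 31520672, plus strand) was at 39.6 and 66.6 CPM in macrophages and nearly absent from neutrophils, with 5 and 30 UMIs, or 2.0 and 4.56 CPM. The log2 ratio was 4.31 and 3.87. In lymphocytes Ass1 was at 67.4 CPM in 4T1P (48.6 to 91.1) and at 34.7 CPM in 4T1M (22.2 to 51.6). Neutrophils thus carried the genes of both routes that consume arginine, as Arg2 and Nos2, with little of the transporter Slc7a2 or of Ass1, and macrophages carried all 6 genes.

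At least 1.5-fold differences are common between these classes. Of the 11750 and 12173 genes with at least 10 UMIs, 62.1% in 4T1P and 60.4% in 4T1M were higher in macrophages by that measure, and 16.5% and 17.5% were lower, so that 4 higher and 2 lower of the 6 arginine genes lie near the background. Over a list of 46 genes of arginine transport and metabolism, which includes the 6, 22 of the 37 in 4T1P and 24 of the 36 in 4T1M with enough UMIs were higher in macrophages, and 7 were lower in each. The tetrahydrobiopterin genes were divided. Gch1, the entry enzyme of the cofactor's synthesis, was at 136 and 143 CPM in neutrophils against 69.7 and 85.2 CPM in macrophages, and Pts, the next enzyme, was at 89.5 and 141 CPM against 29.0 and 30.7 CPM. Spr, the last enzyme, and Qdpr, which regenerates the cofactor, were instead higher in macrophages, with log2 ratios of 3.06 and 3.50 for Spr and of 4.19 and 4.53 for Qdpr. With 10 and 17 neutrophil UMIs for Spr and 4 and 8 for Qdpr, the size of these ratios is imprecise. By share of UMIs, Gch1 and Pts were therefore distributed like Nos2, and Spr and Qdpr were not. Transcripts per cell were not compared, and macrophages had more UMIs per cell, a median of 9727 and 9213.5 against 3054.5 and 2957.5.

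The polyamine genes were divided too. The spermidine and spermine synthases Srm and Sms lay on the side of Odc1, with macrophage over neutrophil log2 ratios of 4.62 and 3.33 for Srm and of 4.02 and 3.29 for Sms. These ratios rest on few neutrophil UMIs, above all in 4T1P, so their size is imprecise. The spermine oxidase Smox, at 555 and 567 CPM in neutrophils against 111 and 112 CPM in macrophages, and the acetyltransferase Sat1, at 1039 and 1005 against 557 and 549 CPM, were higher in neutrophils. Both of these enzymes act in polyamine breakdown. They were the only 2 of 13 polyamine genes at least 1.5-fold higher in neutrophils in each library, and Paox, another polyamine oxidase, was not among them. In macrophages 7 of the 13 were higher by as much. Over all genes, 62.1% and 60.4% were higher in macrophages and 16.5% and 17.5% in neutrophils. Both polyamine counts, 7 and 2 of 13, therefore lie near the background. Gatm, which takes arginine into creatine synthesis, was at 806 and 1075 CPM in macrophages and at 31.2 and 42.7 CPM in neutrophils.

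Between the libraries, macrophages of 4T1M had less Arg1 and more of the other 5 genes than macrophages of 4T1P. For Arg1 the step from 2402 to 1945 CPM was a log2 ratio of -0.30 (-0.33 to -0.28). Ass1 went from 39.6 to 66.6 CPM, a log2 ratio of 0.75 (0.56 to 0.94), and Nos2 from 36.5 to 54.3 CPM, a log2 ratio of 0.57 (0.37 to 0.78). Arg2 and Slc7a2 were higher in 4T1M by 0.35 (0.23 to 0.47) and 0.30 on the log2 scale, and Odc1 by 0.13 (0.03 to 0.23). Of the 6 genes, 1, Ass1, was past 1.5-fold, where 7.37% of 12352 genes were higher and 7.93% were lower by as much. The median over all these genes was -0.03, and over the 6 arginine genes 0.32. Nos2 lay just inside that line and was past it under 5 of the 7 alternatives, at 0.60 to 0.69, and Arg2 was past it, at 0.64, when each cell was weighted equally.

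How the classes were drawn bears on all of these values except that of Slc7a2. With macrophages required to hold S100 genes below 0.5% and macrophage genes at 1% or more, Nos2 was at 20.6 CPM (17.3 to 24.3) in 4T1P and at 24.0 CPM (20.4 to 28.1) in 4T1M, a log2 ratio of 0.22 with an interval of -0.12 to 0.57 that includes 0, and Arg1 was lower in 4T1M by a log2 ratio of -0.56. With these limits Arg2 was at 0.21, Odc1 at 0.23 and Ass1 at 0.99, and Slc7a2 stayed at 0.30. Neutrophil transcripts differed between the macrophage classes as well. S100a8 was at 237 and 465 CPM and Csf3r at 30.2 and 55.1 CPM in macrophages of 4T1P and 4T1M. Of the 7 further neutrophil markers, 6 were higher in macrophages of 4T1M and Mmp9 was lower, at 55.8 and 16.9 CPM. Their part in the Nos2 and Arg2 values was not tested. When each cell was weighted equally in place of each UMI, Odc1 turned to -0.01.

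**Figure D2:**
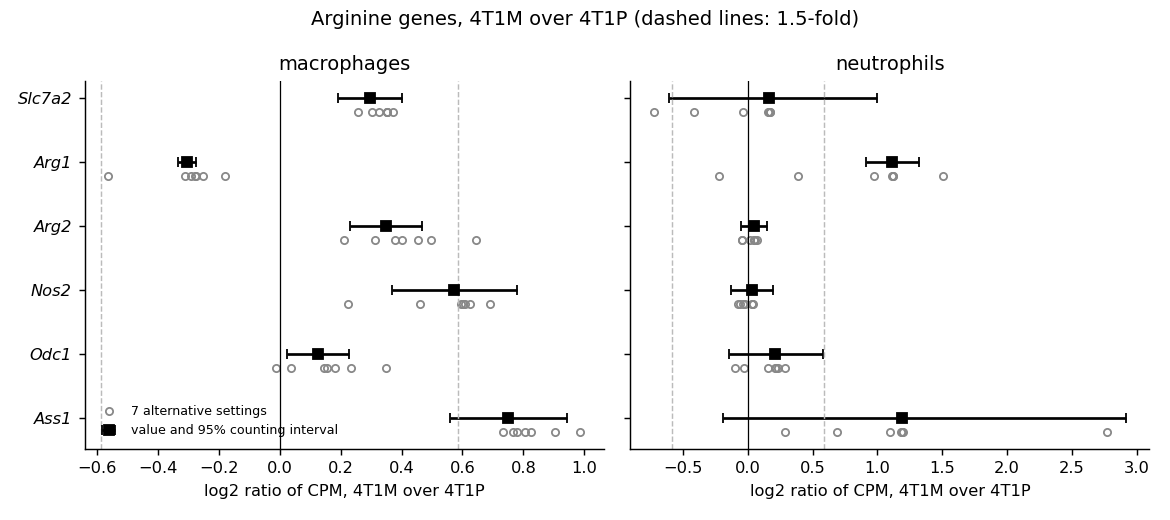
Log2 ratio of CPM, 4T1M over 4T1P (horizontal axes), for the arginine genes in macrophages and neutrophils, with black squares and bars for the value and its 95% counting interval and open circles for 7 other ways of scaling, filtering or weighting the cells. The circles for Arg1 lie below 0 in macrophages, from -0.56 to -0.18, and on both sides of 0 in neutrophils, from -0.22 to 1.51.

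In neutrophils, Arg2 and Nos2, the arginine genes these cells carried most of relative to macrophages, were close to equal in the libraries. The log2 ratio was 0.05 for Arg2 and 0.04 for Nos2 (-0.13 to 0.20). Slc7a2 and Odc1 had ratios whose intervals included 0, as did Ass1 at 1.19 (-0.19 to 2.91) on 5 and 30 UMIs. Arg1 was higher in 4T1M, at 202 against 93.1 CPM, a log2 ratio of 1.11 (0.91 to 1.32). Of the 6 genes, 2, Arg1 and Ass1, were past 1.5-fold, where 14.3% of 9994 genes were higher and 9.93% were lower by as much.

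The neutrophil Arg1 UMIs sat in few barcodes. In 4T1P, 4 of 612 neutrophils had 10 or more Arg1 UMIs and held 115 of the 233, and in 4T1M, 20 of 1686 did and held 1029 of the 1326. The share of neutrophils with any Arg1 UMI was 13.4% (10.8 to 16.4) in 4T1P and 13.0% (11.4 to 14.7) in 4T1M. In lymphocytes, at median depths of 4862.5 and 5552 UMIs, that share was 8.82% and 4.92%. The few barcodes rich in Arg1 stood apart in depth and in the genes of the class rule. They had a median of 10530.5 and 12228.5 UMIs, a median S100a8 and S100a9 content of 2.47% and 3.22%, and the 7 macrophage rule genes at 0.417% and 0.332% of UMIs, against 2966.5 and 2869 UMIs, 10.0% and 7.93%, and 0.0522% and 0.0523% in neutrophils without Arg1. The 7 further macrophage markers differed less, at 0.633% and 0.637% against 0.543% and 0.507%. The 7 further neutrophil markers were at 0.271% and 0.443% against 1.73% and 1.43%. The limit of 10 Arg1 UMIs was set on counts without thinning, which favors deep barcodes. The difference in depth, and the overlap with the deepest neutrophils given next, therefore follow in part from this limit. Neutrophils with 1 to 9 Arg1 UMIs had a median of 3497 and 3636 UMIs. The 5% of neutrophils with the most UMIs, 31 and 85 barcodes, included 2 of the 4 and 16 of the 20 and held 73 and 960 of the Arg1 UMIs. Without them, Arg1 was at 80.5 CPM in 4T1P (68.5 to 94.0) and 69.1 CPM in 4T1M (62.2 to 76.5), a log2 ratio of -0.22 (-0.49 to 0.06), in place of 1.11. With each cell weighted equally the ratio was 0.38. It was 1.51 in stricter classes, and 1.20 in neutrophils with macrophage rule genes under 0.2% of UMIs, a limit added after the data were seen. Nos2 was spread over far more neutrophils, as only 2 and 7 of them had 10 or more Nos2 UMIs, and these held 6.54% and 8.07% of its UMIs.

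Read as a percentage of the macrophage level, Arg1 in neutrophils was 3.87% in 4T1P and 10.4% in 4T1M. Of 7 macrophage genes, Mrc1 was lowest by this measure, at 1.37% and 2.0%, and Cd68 highest, at 49.7% and 46.3%, with Fn1 at 2.26% and 4.17% and Csf1r at 6.61% and 10.6%. For Arg2 the percentage was 381% and 310%, and for Nos2 468% and 323%. Whether macrophage RNA in neutrophil barcodes gave the Arg1 UMIs was not tested.

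The line at 1.5% of S100a8 and S100a9 runs through a continuous range, and barcodes on both sides of it were rich in Arg1. In the 92 and 336 barcodes with 0.5% to 1.5%, Arg1 was at 2152 CPM in 4T1P and 644 CPM in 4T1M, and in the 83 and 311 with 1.5% to 3% it was at 559 and 677 CPM. In the 309 and 666 barcodes with 10% or more, it was at 43.3 and 59.5 CPM, the lowest of the 5 ranges in both libraries. Arg2 was instead lowest below 0.5%, at 113 and 157 CPM, and highest at 3% to 10%, at 554 and 481 CPM. At 10% or more it was at 380 and 398 CPM. Nos2 was at 42.7 and 65.8 CPM below 0.5% and at 156 and 133 CPM at 10% or more. It was highest at 3% to 10% in 4T1P, at 237 CPM, and at 1.5% to 3% in 4T1M, at 220 CPM.

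**Figure D3:**
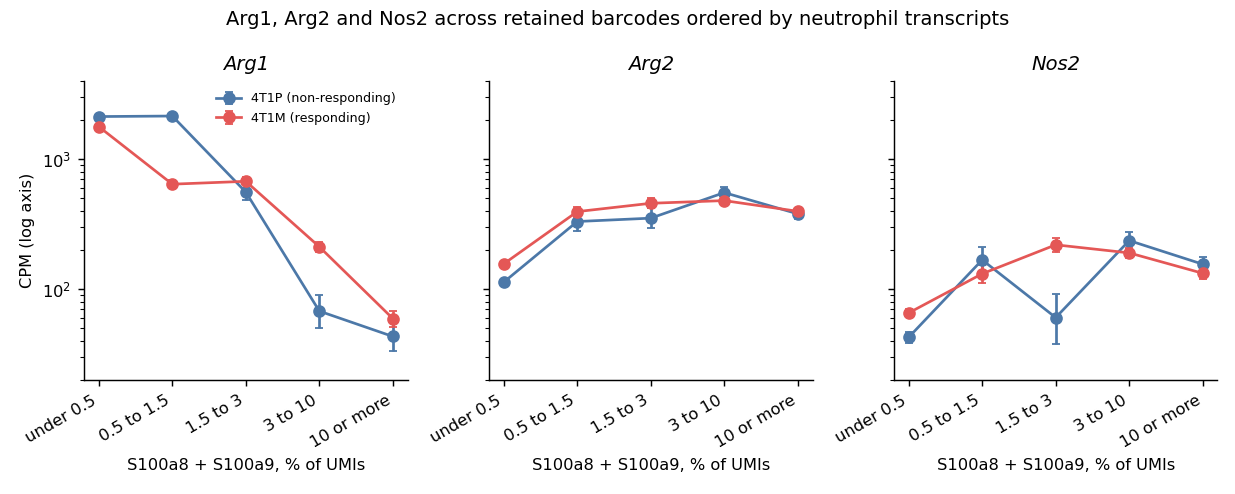
CPM of Arg1, Arg2 and Nos2 (log axes) in all retained barcodes, whatever their class, grouped by the share of UMIs from S100a8 and S100a9 (horizontal axes, percent), with 95% counting intervals. Arg1 goes from 2132 and 1783 CPM in the lowest group to 43.3 and 59.5 CPM in the highest, while Arg2 and Nos2 are lowest where S100 transcripts are below 0.5%.

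Of the same 46 genes, 38 had enough UMIs in macrophages. Of these 1 was at least 1.5-fold higher and 4 were at least 1.5-fold lower in 4T1M, with a median log2 ratio of -0.00, where 7.37% and 7.93% of all genes were past these lines. The 4 were the mitochondrial ornithine carrier Slc25a15 (35 and 24 UMIs), Nos3 (17 and 7), Gchfr, the feedback regulator of Gch1 (6 and 4), and Ddah2, which breaks down methylated arginines (34 and 16). All 4 rest on few UMIs, and the interval excluded 0 only for Nos3 and Ddah2. In neutrophils 32 genes had enough UMIs, of which 7 were higher and 2 were lower in 4T1M, against 14.3% and 9.93% of all genes, and the median was 0.04. Besides Arg1 and Ass1, the 7 were Slc7a1, Pts, Srm, Sms and Dohh, and of these only Pts, with 89.5 and 141 CPM and a log2 ratio of 0.66 (0.45 to 0.87), had an interval that excluded 0. Spr and Ddah2 were the 2 lower genes, on at most 17 UMIs a library.

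Arg1 and Nos2 are often used to mark opposed macrophage states, and the single cells show whether they occur apart. Among macrophages thinned to 2000 UMIs, 633 in 4T1P and 760 in 4T1M were deep enough, and 165 and 216 were left out. Arg1 was detected in 432 and 503 of them, Nos2 in 25 and 56, and both in 22 and 48. Nos2 was thus mostly found with Arg1: 88.0% (68.8 to 97.5) and 85.7% (73.8 to 93.6) of macrophages with Nos2 had Arg1, against 67.4% (63.5 to 71.1) and 64.6% (61.0 to 68.2) of those without. Most macrophages with Arg1, 410 of 432 and 455 of 503, had no Nos2 UMI. The share with both was 3.48% (2.19 to 5.21) in 4T1P and 6.32% (4.69 to 8.29) in 4T1M. The product of the single shares would give 2.70% and 4.88%, so that the observed share was 1.29 and 1.30 times the product.

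Thinning draws UMIs at random, and the 4T1P count depended on the draw. In 4 other draws, added after the first was seen, 29 to 33 macrophages of 4T1P and 40 to 53 of 4T1M held both transcripts, or 4.58% to 5.21% and 5.26% to 6.97%. The observed share stayed above the product in each of these draws, by 1.22 to 1.38 times. Without thinning, 87 of the 89 macrophages with Nos2 in 4T1P and 137 of the 151 in 4T1M had an Arg1 UMI, and both transcripts were found in 10.9% and 14.0% of macrophages. The product of the single shares would give 71.8 and 114 macrophages with both. The observed number was 1.21 and 1.20 times that.

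Nos2 was found more often where Arg1 was abundant. In 4T1M, 3.11% of macrophages without Arg1 had a Nos2 UMI (1.35 to 6.04), 2.26% of those with 1 to 2 Arg1 UMIs (0.619 to 5.68), 9.63% of those with 3 to 5, 14.4% of those with 6 to 10 and 18.4% of those with over 10 (10.9 to 28.1). In 4T1P the share was 1.49% without Arg1 (0.309 to 4.30) and 9.78% over 10 Arg1 UMIs (4.57 to 17.8), with 5.77%, 1.69% and 4.24% in the ranges between, so that the order of the ranges was not steady in either library.

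**Figure D4:**
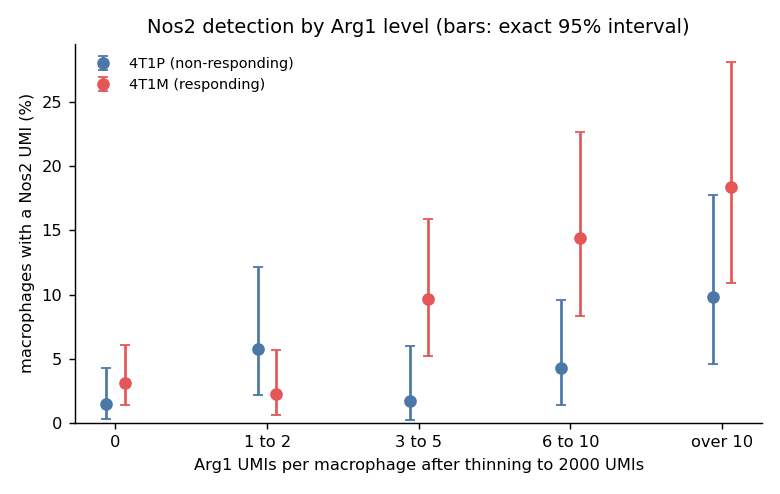
Percentage of macrophages with a Nos2 UMI (vertical axis) by the number of Arg1 UMIs in the same macrophage (horizontal axis) after thinning to 2000 UMIs, with exact 95% binomial intervals. In 4T1M the share goes from 3.11% without Arg1 to 18.4% over 10 Arg1 UMIs, and in 4T1P from 1.49% to 9.78%.

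The other arginine genes followed Arg1 and Nos2 to different degrees. Macrophages with Arg1 had Slc7a2 at 159 CPM in 4T1P and 187 CPM in 4T1M, against 39.8 and 83.7 CPM in those without, log2 ratios of 2.0 (1.25 to 2.85) and 1.16 (0.68 to 1.68). Macrophages with Nos2 had Slc7a2 at 240 and 259 CPM, on 12 and 29 UMIs, against 116 and 143 CPM. In 4T1P the intervals with and without Nos2 overlapped, at 124 to 419 and 97.6 to 137 CPM. Odc1 ran against Arg1, at 143 and 173 CPM with Arg1 and 229 and 243 CPM without, although its enzyme uses the ornithine that arginase makes. Ass1 had 27 and 64 UMIs in macrophages with Arg1 and 21 and 34 in those without, and its ratios had intervals that included 0. Arg2 was higher with Arg1 in 4T1P, by 0.92 (0.34 to 1.55), and by 0.25 (-0.15 to 0.65) in 4T1M. Of the 5 arginine genes other than Arg1, 3 in 4T1P and 2 in 4T1M were at least 1.5-fold higher with Arg1, where 12.6% of 7924 and 13% of 8240 genes were. In 4T1P 2 of the 5, Odc1 and Ass1, were lower by as much, and in 4T1M 0, where 17.5% and 14.2% of genes were. With Nos2, 3 of 5 were higher in each library, where 28.3% and 23.7% of genes were, and 0 were lower, where 24.8% and 29.9% of genes were.

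Macrophages with Arg1 also differed in hypoxia and antigen presentation genes. Of 10 genes of the response to low oxygen, Hif1a among them, 8 in 4T1P and 7 in 4T1M were at least 1.5-fold higher with Arg1. Of all genes, 12.6% and 13% were. Above 0 were 9 of the 10 in 4T1P and 10 in 4T1M. The median log2 ratio of the 10 was 0.97 and 0.94, against -0.08 and -0.04 over all genes. Like the other lists, this one was chosen with earlier results of these data known. Bnip3, a mitophagy receptor, was at 328 and 343 CPM with Arg1 and 122 and 148 CPM without. Egln3, an oxygen-sensing prolyl hydroxylase, was at 91.7 and 114 CPM with Arg1 and 27.4 and 33.1 CPM without. Hif1a itself was near equal, with log2 ratios of 0.13 and 0.15. The 5 MHC class II genes were all below 0, with a median of -0.65 and -0.59, and H2-Eb1 was at 1333 and 2134 CPM with Arg1 and 2383 and 3455 CPM without.

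Macrophages with Nos2 mostly showed the same direction in both lists. Ciita, the MHC class II transactivator, was above 0 in each library. In 4T1P Hif1a was below 0 with Nos2, whereas another hypoxia gene was below 0 with Arg1. In each library 8 of the 10 hypoxia genes were at least 1.5-fold higher with Nos2, with medians of 1.19 and 1.005, and the glucose transporter Slc2a1 was at 500 and 554 CPM against 171 and 172 CPM. For this split 28.3% and 23.7% of all genes were higher by as much, as the Nos2 group holds 25 and 56 cells. In the 4 other random draws Nos2 was found in 30 to 36 and 47 to 60 macrophages, and the splits were not repeated on them. The MHC class II genes had medians of -0.34 in 4T1P and -1.02 in 4T1M. Macrophages with Nos2 had fewer transcripts of the 7 macrophage rule genes, a median of 0.948% and 0.578% of UMIs against 1.62% and 1.71% without, while S100 genes were similar, at 0.0270% and 0.0372% against 0.0164% and 0.0382%. In the stricter classes, which need 1% of macrophage genes, 11 of 448 and 17 of 506 thinned macrophages had a Nos2 UMI, against 25 of 633 and 56 of 760 in the classes used here.

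In neutrophils with Nos2, thinned to 1000 UMIs, the arginine genes did not follow 1 direction. Of 3 with enough UMIs, 0 were at least 1.5-fold higher and 2 were lower in 4T1P, where 21.1% of genes were in either direction, and 2 were higher and 0 were lower in 4T1M, where 20% and 19.4% of genes were. Arg1 had 2 UMIs with and 42 without Nos2 in 4T1P, and 53 and 117 in 4T1M. Of the 10 hypoxia genes, 4 in 4T1P and 5 in 4T1M were at least 1.5-fold higher, with medians of 0.46 and 0.67, and Bnip3 was at 1013 and 1229 CPM with Nos2 and 555 CPM without in each library.

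The lists of classical and alternative activation genes held members on both sides of 0 for either split. Of 12 classical genes, 11 and 12 had enough UMIs, and with Nos2 they had medians of 0.35 in 4T1P and -0.23 in 4T1M, and with Arg1 of -0.50 and -0.12. Ptgs2, the inducible cyclooxygenase, was higher both with Nos2 (3022 and 2627 CPM against 935 and 982 CPM) and with Arg1 (1244 and 1265 CPM against 540 and 792 CPM). Cxcl9, a chemokine induced by interferon gamma, was at 83.6 and 127 CPM with Arg1 and 321 and 179 CPM without. With Nos2 it was at 200 and 26.8 CPM, on 10 and 3 UMIs. Of the 8 alternative activation genes, 2 in each library were at least 1.5-fold higher with Arg1, where 12.6% and 13% of all genes were, and 1 in 4T1P and 2 in 4T1M were lower, where 17.5% and 14.2% were, with medians of -0.41 and -0.06, and the mannose receptor Mrc1 was at 626 and 337 CPM with Arg1 and 801 and 329 CPM without. The chemokine Ccl24 was higher with Arg1 in both, at 646 and 272 against 294 and 128 CPM. With Nos2, 4 of the 8 alternative activation genes were at least 1.5-fold lower in each library, where 24.8% and 29.9% of all genes were. In 4T1P 2 and in 4T1M 1 were higher by as much, where 28.3% and 23.7% were. The medians of this list with Nos2 were -0.58 and -1.17.

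Splitting the macrophages by 1 state marker at a time described where the arginine genes were high. The markers were chosen with earlier results of these data known, so a link of Arg1 to them is no independent finding. Of 13 markers, 10 were detected in at least 20 macrophages of each library. Arg1 was higher in both libraries in macrophages with Thbs1 (thrombospondin 1), Mmp12 (macrophage elastase) and Spp1 (osteopontin), and lower in those with Cxcl9, Ccr2, Cx3cr1, Vcam1 and Mki67. With Thbs1 it was at 3953 CPM in 4T1P and 4260 CPM in 4T1M, against 2052 and 1700 CPM without, and with Cxcl9 at 1106 and 962 CPM against 2496 and 2075 CPM. Nos2 was higher with Thbs1, at 62.5 and 123 CPM against 22.3 and 45.4 CPM, and with Mmp12, at 56.6 and 93 CPM against 14.3 and 29.5 CPM. It was lower with Ccr2 and Cx3cr1. Slc7a2 was higher with Mmp12, at 217 and 265 against 72.4 and 84.2 CPM, and lower with Mrc1. Macrophages with Thbs1 or Mmp12 thus carried both Arg1 and Nos2 at their higher levels in both libraries.

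Ass1 had another distribution. It was higher with Cxcl9, at 77.5 and 108 CPM against 32.9 and 59.5 CPM, and lower with Mrc1, at 20.9 and 27.8 CPM against 57.0 and 86.9 CPM, and with Spp1. The counts are small, with 48 and 98 thinned Ass1 UMIs in the 633 and 760 macrophages, of which 11 and 17 lay in those with Cxcl9. The log2 intervals came close to 0, from 0.11 and 0.007 upward for Cxcl9 and up to -0.07 and -0.005 for Spp1. These splits were not repeated on other random draws. Odc1 differed in the same direction in both libraries, beyond counting error, for none of the 10 markers, and Arg2 only for Thbs1.

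**Figure D5:**
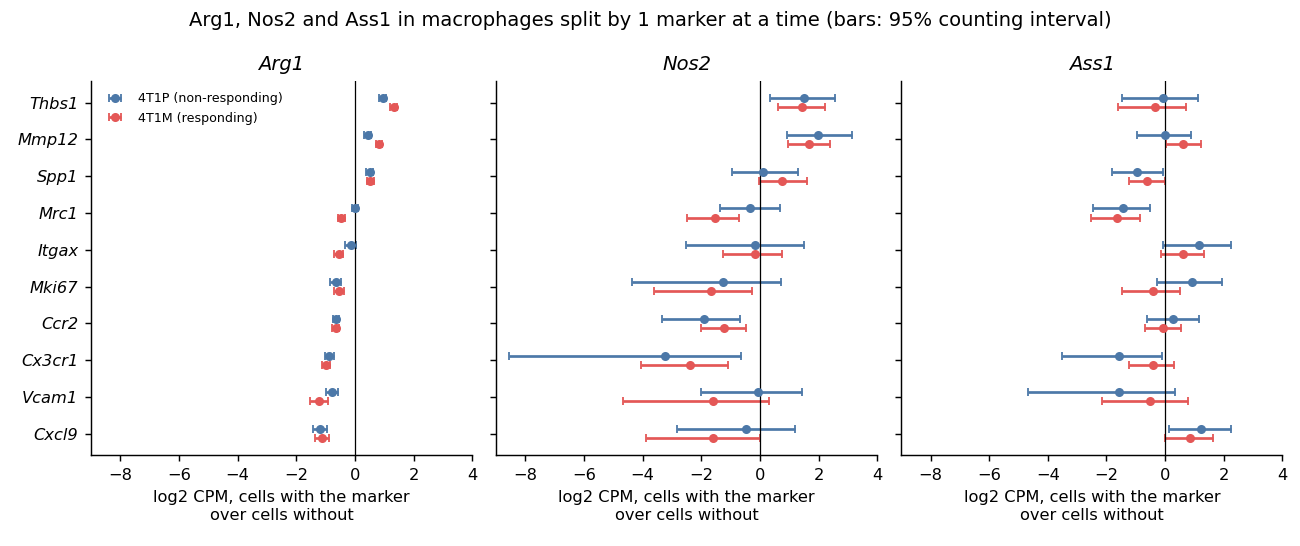
Log2 ratio of CPM in macrophages with a UMI of a marker over macrophages without it (horizontal axes), for Arg1, Nos2 and Ass1 after thinning to 2000 UMIs, with 1 row per marker and 95% counting intervals. Thbs1 and Mmp12 lie to the right of 0 for Arg1 and Nos2 in both libraries. Cxcl9 lies to the left for Arg1 and to the right for Ass1, where its intervals come close to 0.

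Genes were also ranked in macrophages by the smaller of the 2 libraries' log2 ratios of CPM in cells with Arg1 over cells without. The 8 highest among 3357 genes were Hbb-bs, Tnfrsf9, Sox4, Cxcl3, Egln3, Inhba, Rgcc and Prelid2. Hbb-bs, a hemoglobin gene, is listed for 2 and 8 macrophages only, 1 of which held 187 of the 188 UMIs in 4T1P. Tnfrsf9, the costimulatory receptor 4-1BB, was at 159 and 120 CPM with Arg1 and 17.4 and 15.6 CPM without. For Nos2 the 8 genes were Rgcc, Cxcl3, Inhba, Il7r, Mt2, Raph1, Impa2 and Ndrg1. Inhba, a subunit of activin, was at 1981 and 1153 CPM with Nos2 and 136 and 293 CPM without, and Cxcl3, a neutrophil chemoattractant, at 2162 and 2609 CPM against 508 and 621 CPM. Rgcc, Cxcl3 and Inhba stood in both lists, which were drawn from the same cells.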

How the data were processed

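Per the labels, the deposited matrices hold unnormalized UMI counts, made with Cell Ranger (4.0.0 in the submitters' processing notes, another version in the study's methods) on mm10, with no comparison columns. Barcodes were filtered and classed by the thresholds in the text with Python 3.11.15, NumPy 2.4.6 and SciPy 1.17.1. Libraries held 21855657 (4T1P) and 24303957 (4T1M) UMIs. No doublet caller was run, so doublets below the upper gene limit remain in the classes.

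Counts were summed by class and library and divided by the class total (CPM). Intervals were exact Poisson for CPM, exact conditional for log2 ratios and Clopper-Pearson for shares. Genes with at least 10 UMIs over both groups entered counts past 1.5-fold, and 0.5 UMIs were added for medians and calls over all genes. Co-detection, splits and markers used macrophages thinned to 2000 UMIs, and the neutrophil splits and markers neutrophils thinned to 1000. Scripts were tested on simulated data. Genes named were the 6, those of the pathway, activation and marker lists, and the 8 with the highest ratios for Arg1 and for Nos2. These and the lists were chosen with earlier results of these data known.

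Alternatives were TMM (edgeR 4.0.16) and DESeq2 1.42.0 scaling in R 4.3.3, other gene, mitochondrial and class limits, leaving out the 5% of cells with the most UMIs, equal weights per cell and other thinning. Other random draws and a limit on macrophage genes in neutrophils were added after the data were seen.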

Additional observations from a re-analysis of the deposited data

Results flagged for a closer look

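The Arg1 log2 ratio of 4T1M over 4T1P was -0.30 in macrophages and 1.11 in neutrophils. With 1 library per condition the difference between the classes was not tested, and the neutrophil value changed sign without the 5% of neutrophils with the most UMIs.

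Arg1 and Nos2 were also present in barcodes outside the macrophage, neutrophil and lymphocyte classes. Their levels there were above those in lymphocytes (16.1 and 10.1 CPM for Arg1, 0 and 2.89 CPM for Nos2, in 4T1P and 4T1M). In the 133 and 48 barcodes with over 5000 genes, Arg1 was at 1022 and 758 CPM and Nos2 at 17.5 and 21.5 CPM. In the 420 and 472 barcodes with over 10% mitochondrial UMIs, Arg1 was at 803 and 365 CPM and Nos2 at 53.8 and 84.9 CPM. In the 665 and 1022 barcodes with under 500 genes, Arg1 was at 471 and 468 CPM and Nos2 at 29.8 and 49.999 CPM. The 214 and 677 retained barcodes of no class had Arg1 at 967 and 925 CPM and Nos2 at 174 and 154 CPM.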

How the results depend on the processing

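Each condition has 1 library, so the spread between animals is unknown and the intervals cover counting error only. No paired analysis was possible because each condition has 1 library and the result comes from no test. In macrophages the Arg1 ratio stayed below 0, at -0.27 with TMM, -0.25 with DESeq2 scaling, -0.18 without the upper gene limit and -0.56 in stricter classes. Nos2 there was at 0.22 in stricter classes and past 1.5-fold under 5 of 7 alternatives (0.60 with TMM, 0.63 with DESeq2 scaling, 0.69 without the upper gene limit, 0.61 at 5% mitochondrial UMIs and 0.60 with equal weights), Arg2 was at 0.64 with equal weights, and Odc1 turned to -0.012 with equal weights. TMM and DESeq2 moved all macrophage ratios by 0.03 and 0.05. In neutrophils Arg1 was at -0.22 without the 5% of cells with the most UMIs, 0.38 with equal weights and 1.51 in stricter classes, and the cause was not tested. Neutrophils limited to under 0.2% of macrophage rule genes had Arg1 at 37.4 and 85.6 CPM.

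Of the pathway genes, 1 was higher in macrophages, against 2 with TMM, DESeq2 scaling, no upper limit or 5% mitochondrial UMIs, 3 at 1 UMI and 4 with equal weights. The 4 lower ones became 2 with DESeq2 scaling, 5% mitochondrial UMIs or 50 UMIs. In neutrophils the 7 higher ones became 2 without the 5% of cells with the most UMIs or with equal weights and 3 at 50 UMIs. The 2 lower ones became 0 at 5% mitochondrial UMIs or 50 UMIs, 1 in stricter classes or without the largest cells, 4 with equal weights and 5 at 1 UMI. The number of genes with enough UMIs changed as well, in neutrophils from 32 to 20 at 50 UMIs and 40 at 1 UMI. In macrophages it went from 38 to 36 and 42. The share of all genes past 1.5-fold was computed for the main setting only. It was 7.37% higher and 7.93% lower in macrophages, and 14.3% and 9.93% in neutrophils.

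The share of macrophages with Arg1 and Nos2 was 1.68% in 4T1P and 3.09% in 4T1M at 1000 UMIs, 10.9% and 14.0% without thinning, 0.948% and 2.24% at 2 UMIs for detection, and 6.17% and 9.62% at 5% mitochondrial UMIs. In stricter classes it was 2.77% in 4T1M.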

Other observations

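Neutrophils with the chemokine receptor Cxcr2 had less Nos2 than those without, at 94.9 against 231 CPM in 4T1P and 125 against 196 CPM in 4T1M, after thinning to 1000 UMIs. Neutrophils with Hdc, the histidine decarboxylase, did too, at 148 against 283 CPM and 135 against 241 CPM. Arg1 was higher in neutrophils with Il1a, at 120 and 142 against 52.6 and 64.1 CPM, on 21 and 113 against 23 and 57 UMIs. It was lower in neutrophils with Cxcr2, at 25.3 and 70.2 against 88.1 and 113 CPM. The few barcodes rich in Arg1 hold much of the Arg1 UMIs of this class, and their part in these splits was not tested.

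Among other pairs of arginine genes in thinned macrophages, Nos2 and Slc7a2 were found together 1.97 and 1.66 times as often as the product of their shares. This rests on 8 and 18 macrophages with both. Arg2 and Slc7a2 were found together 1.60 and 1.30 times as often, in 33 and 47 macrophages. Arg1 and Odc1 were found together 0.865 and 0.928 times as often. Retained barcodes of no class had Slc7a2 at 59.7 CPM in 4T1P and 114 CPM in 4T1M.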
